A study of Homo sapiens with 3 samples.

Results

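Ether lipid and peroxisome assembly genes were followed in a genome-wide CRISPR screen for resistance to ferroptosis in Huh-7, a line established from a human hepatocellular carcinoma. The 9 genes were FAR1, FAR2, AGPS, GNPAT, PEX3, PEX5, PEX7, PEX10 and PEX19, taken by their symbols from the sgRNA library, where each had 6 sgRNAs. They made up 54 of the 119461 sgRNAs and 9 of the 21815 targets, and all 9 symbols are current in the RefSeq gene table. Every culture was derived from Huh-7 cells transduced with the lentiviral GeCKOv2 library at a target MOI of 0.3 and selected with 2 µg/mL puromycin for 3 days. In these cells the integrated sgRNA directs Cas9 to its gene, and the count of the sgRNA reflects how common its carriers are. One library each was available from untreated cells, from cells that survived 0.1 µM RSL-3 for 24 h and from cells that survived 24 h of 0.03 µM RSL-3 combined with linoleic acid (LA) at 50 mM. RSL-3 blocks GPX4, which detoxifies lipid peroxides, and LA is a polyunsaturated lipid that cells can build into membranes. Survivors were regrown and treated repeatedly, and the sources differ on the number of rounds. The survivor cultures therefore differed in RSL-3 dose, in LA and possibly in rounds, and their values are given side by side.

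Ether phospholipids, which include the plasmalogens, carry an alkyl or alkenyl chain in place of an acyl chain and often hold a polyunsaturated fatty acid beside it. Their synthesis starts inside peroxisomes, where GNPAT acylates dihydroxyacetone phosphate and AGPS exchanges that acyl chain for a fatty alcohol. FAR1 and its paralog FAR2 supply the fatty alcohol, and later steps take place in the endoplasmic reticulum. Peroxins build the organelle: PEX3 and PEX19 insert its membrane proteins, PEX5 and PEX7 carry enzymes into its lumen, and PEX10 is a ubiquitin ligase that helps to recycle PEX5. AGPS is a cargo of PEX7. Oxidation of polyunsaturated ether phospholipids is known as a route to ferroptosis in some cell types.

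The libraries were nearly equal in depth, with total counts between 1466896 and 1485991. An sgRNA without a count could still make up 0.000202% to 0.000205% of its library, the share that 3 counts would have. A fold given as "at least" puts 3 counts in place of the missing count. It takes the other count as exact, so it leaves out the counting error of that count. Each condition had a single library, so the differences lack a replicate check and were not tested. All intervals are exact 95% binomial intervals. Those of ratios and of shares of counts, and the limit of 3 counts, describe counting error alone, because amplified reads are not separate molecules. Intervals of shares of sgRNAs take the sgRNAs of a list as independent draws. Such intervals do not describe counting error and are no test of a list against the library. CPM are counts per 1000000 counts of the library. Cutting efficiency and off-target cutting of the sgRNAs were not measured, and guide counts from genomic DNA hold no expression by which the cell line label could be checked.

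Most of these genes were barely represented before any treatment. Before selection 4 of the 54 sgRNAs had a count, 7.41% (interval 2.06 to 17.9), against 16.0% of all sgRNAs, a value inside that interval, and 29% of the non-targeting sgRNAs. Each of the 4 belonged to a different gene. PEX10 had the most abundant of them, HGLibA_36081, with 252 counts. That sgRNA ranked 346 of the 19153 detected in untreated cells, and 98.2% of the detected sgRNAs had lower counts. The FAR1 sgRNA HGLibB_16844 had 148 counts and ranked 3030. The GNPAT sgRNA HGLibA_19561 had 43 counts, below the median of 62 among detected sgRNAs. The FAR2 sgRNA HGLibB_16849 was represented by a single read.

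AGPS, PEX3, PEX5, PEX7 and PEX19 had 0 counts in untreated cells, as did 36.1% of the 18040 genes with 6 sgRNAs. AGPS, PEX3, PEX5 and PEX7 had 0 counts in both survivor libraries as well, so no sgRNA of these 4 genes was seen at all. The same was true of 26.4% of genes with 6 sgRNAs. AGPS commits the pathway to an ether bond and PEX5 and PEX7 import its enzymes, and these steps cannot be assessed from these libraries. In all, 49 of the 54 sgRNAs had no count in any library, and none of the 9 genes had 2 or more sgRNAs with a count, whereas 35.5% of genes with 6 sgRNAs did. A second sgRNA by which a change could be checked was therefore lacking for every one of the 9 genes.

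**Figure D1:**
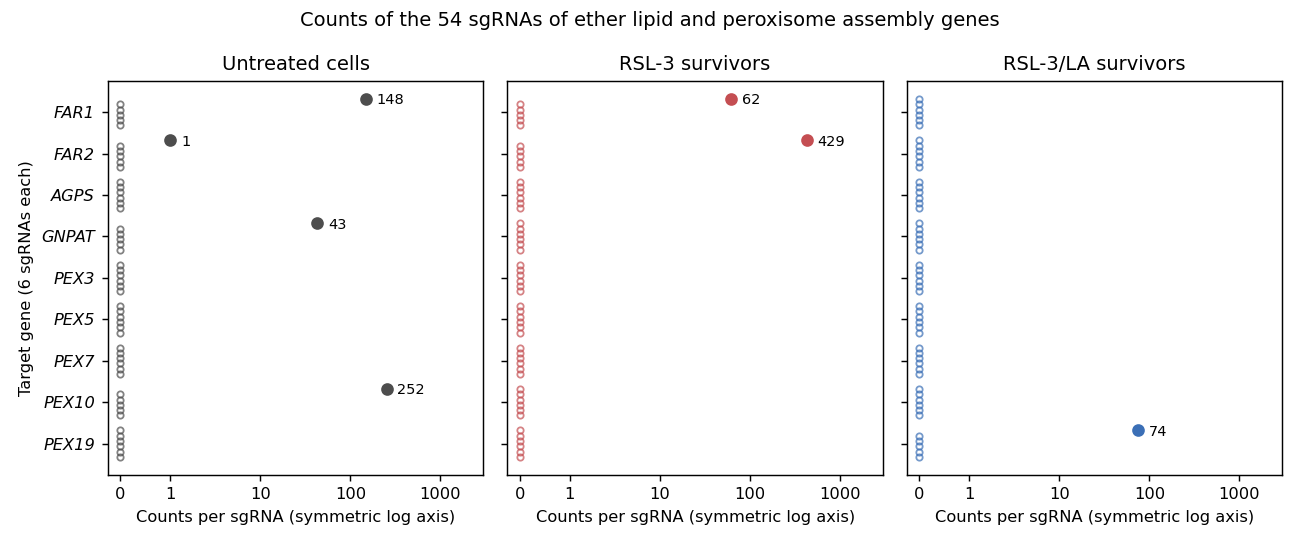
Counts of each of the 54 sgRNAs (6 per gene, rows) in untreated cells, RSL-3 survivors and RSL-3/LA survivors, on a symmetric log axis. Filled circles with their count are detected sgRNAs and open circles at 0 are sgRNAs without a count; 4, 2 and 1 sgRNAs were detected, and no gene had more than 1 in a library.

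The library consists of the sub-libraries A and B, which the sgRNA names give, and each held 27 of the 54 sgRNAs. In untreated cells 2 of 27 were detected from sub-library A and 2 of 27 from B, 7.41% of each. Over all sgRNAs against genes the shares were 17.2% in A and 14.7% in B.

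In RSL-3 survivors the fatty acyl-CoA reductases were the only ones of the 9 genes with counts, with a higher count than in untreated cells for FAR2 and a lower one for FAR1. The FAR2 sgRNA HGLibB_16849 had 1 count in untreated cells, 429 after RSL-3 and 0 after RSL-3/LA. It reached 292.3 CPM after RSL-3, 428.8 times its untreated CPM with an interval of 76.5 to 16974. The width of that interval comes from the single untreated read. The other 5 FAR2 sgRNAs had 0 counts in all 3 libraries.

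Enrichment was defined as a survivor level of at least 100 CPM that also exceeded the untreated level by 10-fold or more, with untreated counts under 3 set to 3. By this rule the FAR2 sgRNA was enriched, 1 of 54 (1.85%), against 0.419% of all sgRNAs. By gene this was 1 of 9, against 2.43% of the genes with 6 sgRNAs. A count of 1 is too small to set the 9 genes apart from that background. The FAR2 sgRNA ranked 250 of 2938 detected sgRNAs and by summed counts FAR2 ranked 256 of all targets. NPM3, CTNND1 and DNAJC5B had the most similar counts over the 3 libraries, by Euclidean distance of log2(CPM + 1) of summed sgRNAs. Each had 1 untreated count and 0 after RSL-3/LA. After RSL-3 NPM3 had 395 counts (distance 0.12), CTNND1 508 (0.24) and DNAJC5B 349 (0.30).

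The FAR1 sgRNA HGLibB_16844 went from 148 untreated counts to 62 after RSL-3 and to 0 after RSL-3/LA. Its ratio of CPM in RSL-3 survivors was 0.42, with an interval of 0.31 to 0.57, so its share was lower than in untreated cells beyond counting error. This sgRNA was nevertheless among the few that were still present. Of 15047 sgRNAs with at least 10 untreated counts, 96.1% had 0 counts in RSL-3 survivors. Among the 582 that remained the median ratio was 0.37, and 300 of them had a lower ratio than the FAR1 sgRNA. Among 6465 sgRNAs with at least 100 untreated counts, 264 (4.08%) had a count in RSL-3 survivors and 157 (2.43%) had at least 20. FAR1 is regarded as the main enzyme of fatty alcohol supply for ether lipids, and its other 5 sgRNAs had 0 counts in every library.

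GNPAT and PEX10 lost their only detected sgRNA in RSL-3 survivors. The GNPAT sgRNA HGLibA_19561 went from 43 counts to 0, at least 14.3-fold lower against the limit of 3 survivor counts. The PEX10 sgRNA HGLibA_36081 went from 252 counts to 0, at least 84.0-fold lower. With FAR1, 3 of the 54 sgRNAs had at least 10 untreated counts, and 2 of these 3 were lost, against the 96.1% of all such sgRNAs that had 0 counts. Loss was thus the usual outcome for any target.

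**Figure D2:**
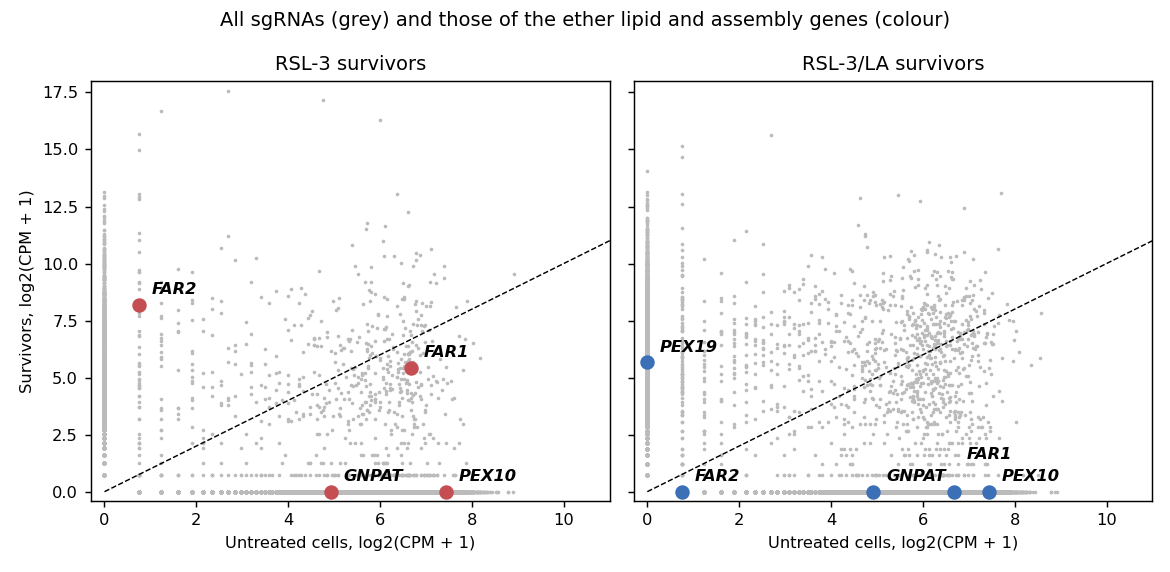
Abundance of every sgRNA in untreated cells (x axis) and in RSL-3 survivors or RSL-3/LA survivors (y axis), both as log2(CPM + 1); the dashed line marks equal values. In RSL-3 survivors FAR2 stands far above the line, FAR1 below it and GNPAT and PEX10 at 0, and in RSL-3/LA survivors only PEX19 has a count.

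In RSL-3/LA survivors PEX19, the chaperone and import receptor of peroxisomal membrane proteins, was the only one of the 9 genes with counts. Its sgRNA HGLibA_36105 had 0 counts in untreated cells and in RSL-3 survivors, and 74 after RSL-3/LA. This was 49.8 CPM, at least 24.3-fold higher than the limit of 3 untreated counts. The sgRNA ranked 2352 of the 4970 detected in that library, where the median was 65 counts, so it stood near the middle. It lay below the threshold of 100 CPM, and none of the 54 sgRNAs was enriched in RSL-3/LA survivors, against 1.20% of all sgRNAs and 6.87% of the genes with 6 sgRNAs. The other 5 PEX19 sgRNAs had 0 counts in all 3 libraries.

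FAR1, GNPAT and PEX10 had 0 counts in RSL-3/LA survivors. The FAR1 sgRNA was at least 50.0-fold lower than in untreated cells against the limit of 3 counts, the GNPAT sgRNA at least 14.5-fold and the PEX10 sgRNA at least 85.1-fold. All 3 sgRNAs with at least 10 untreated counts were lost, against 93.7% of all such sgRNAs. For FAR2, whose sgRNA had 1 untreated count and 0 in RSL-3/LA survivors, no change could be detected at this depth.

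**Figure D3:**
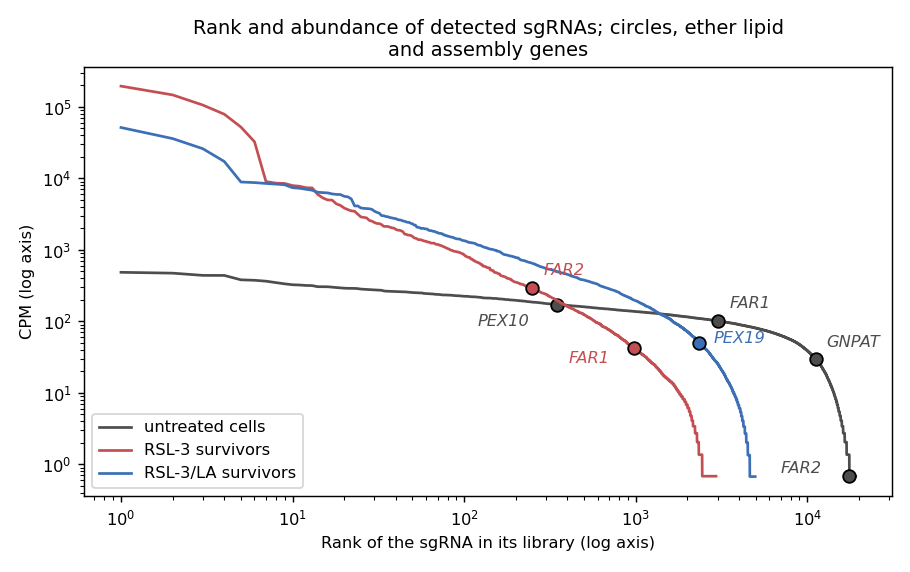
Abundance in CPM (log axis) against rank (log axis) of all detected sgRNAs in untreated cells, RSL-3 survivors and RSL-3/LA survivors. Circles mark the sgRNAs of the 9 genes; FAR2 at rank 250 is the highest of them in RSL-3 survivors, and PEX19 lies at rank 2352 in RSL-3/LA survivors.

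Summed over the 9 genes, 444 counts in untreated cells stood beside 491 after RSL-3 and 74 after RSL-3/LA. The genes thus held 0.0303% (0.0275 to 0.0332), 0.0335% (0.0306 to 0.0365) and 0.00498% (0.00391 to 0.00625) of the counts. The ratio of summed CPM was 1.11 (0.97 to 1.26) in RSL-3 survivors, an interval that includes equal shares. With the sgRNAs of DHCR7, the leading target of the screen, left out of the totals it was 1.68 (1.48 to 1.92). Under either scaling the sum combined the higher value of FAR2 with the lower values of FAR1, GNPAT and PEX10. Scaled by the full totals but without sgRNAs that had under 10 untreated counts, FAR2 among them, the ratio was 0.14. In RSL-3/LA survivors the ratio was 0.16 (0.13 to 0.21), and all 74 counts came from PEX19. None of the 54 sgRNAs had counts in both survivor libraries, which was so for 0.609% of all sgRNAs. Both were set against the same untreated library.

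Detection of 45 further genes of the pathway was close to that of the whole library. Of their 267 sgRNAs, 37 were detected before treatment (13.9%, against 16.0% of all sgRNAs), 9 after RSL-3 (3.37%, against 2.46%) and 12 after RSL-3/LA (4.49%, against 4.16%). Of these 267 sgRNAs 3 were enriched in RSL-3 survivors (1.12%), against 0.419% of all sgRNAs, and 1 in RSL-3/LA survivors (0.375%), against 1.20%.

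Among 7 other genes of ether lipid synthesis, 1 of 39 sgRNAs was enriched in RSL-3 survivors (2.56%, against 0.419% of all sgRNAs). It was an sgRNA of CHPT1. CHPT1 transfers phosphocholine to diacylglycerol and to its ether-linked counterpart. Its sgRNA HGLibA_09528 had 710 counts after RSL-3 and 0 in the other libraries, at least 236.5-fold above 3 untreated counts. Another CHPT1 sgRNA, HGLibB_09520, had 120 untreated counts and 0 in both survivor libraries. DHRS7B, the reductase of the step after AGPS, had the enriched sgRNA of RSL-3/LA survivors, also 1 of 39 (2.56%, against 1.20% of all sgRNAs). Its sgRNA HGLibA_13149 had 254 counts there, at least 83.6-fold over the limit, and 0 in the other libraries. Another DHRS7B sgRNA, HGLibB_13130, went from 146 untreated counts to 0 in both survivor libraries. Both genes thus had 1 enriched and 1 lost sgRNA. A count of 1 of 39 per survivor library is too small to set this list apart from all sgRNAs. Of all sgRNAs with at least 10 untreated counts, 96.1% had 0 counts after RSL-3 and 93.7% after RSL-3/LA. Loss was thus the usual outcome, and these losses do not set the genes apart. Of the 39 sgRNAs of this list 5 had a count in RSL-3/LA survivors, 12.8% (4.30 to 27.4), against 4.16% of all sgRNAs, and 3 of these 5 had only 1 or 2 counts.

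None of 72 sgRNAs of 12 other genes with a PEX symbol, PEX5L among them, was enriched in either survivor library. Of all sgRNAs 0.419% were enriched after RSL-3 and 1.20% after RSL-3/LA. Of these 72, 7 were detected before treatment (9.72%, against 16.0%), 2 after RSL-3 (2.78%, against 2.46%) and 4 after RSL-3/LA (5.56%, against 4.16%).

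Of 126 sgRNAs of 21 peroxisomal enzymes and transporters 2 were enriched in RSL-3 survivors (1.59%, against 0.419% of all sgRNAs). None of the 126 was enriched in RSL-3/LA survivors, against 1.20% of all sgRNAs. HSD17B4, the bifunctional enzyme of peroxisomal β-oxidation, had 636 counts in HGLibB_22163, against 0 in untreated cells, at least 211.9-fold over the limit, and other sgRNAs of it went from 4 and 1 untreated counts to 0. TYSND1, a protease that processes enzymes in the peroxisome, had 147 counts in HGLibB_52411, against 0. At 100.2 CPM this sgRNA lay just inside the threshold, and another TYSND1 sgRNA, HGLibB_52412, went from 32 untreated counts to 0. Of 30 sgRNAs of 5 genes of peroxisome division none was detected after RSL-3, against 2.46% of all sgRNAs, and 1 after RSL-3/LA (3.33%, against 4.16%). It was an sgRNA of MFF, a membrane receptor of the fission machinery, with 73 counts against 0, and another MFF sgRNA, HGLibA_29058, went from 20 untreated counts to 0.

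**Figure D4:**
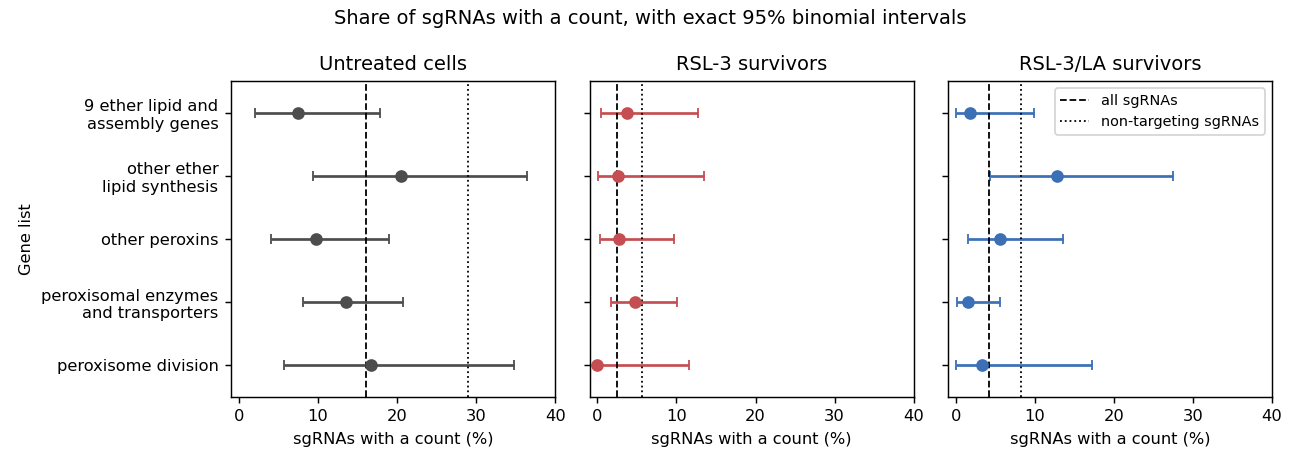
Share of sgRNAs with at least 1 count in each library (x axis, percent) for the 9 ether lipid and assembly genes and for 4 further lists of peroxisomal or ether lipid genes, with exact 95% binomial intervals. Dashed and dotted lines mark all sgRNAs and non-targeting sgRNAs; the 9 genes stand at 7.41%, 3.70% and 1.85%, with intervals that include the share of all sgRNAs.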

How the data were processed

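The authors obtained sgRNA cassettes by PCR of genomic DNA, and MiSeq reads were turned into tables by MAGeCK, a tool that the submitters' processing notes name too. Settings for trimming and matching are not given in the sources used here. The deposited values are raw counts per sgRNA in 2 tables, each pairing a survivor library with the untreated library. The untreated library has the same 119461 values in each table and entered once. Also deposited by the authors were scores, p-values, false discovery rates and ranks per target, which were not used. Sequences and coordinates of the sgRNAs were not used here.

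Scaling to CPM used the total of each library, between 1466896 and 1485991 counts. Enrichment required at least 100 CPM and 10-fold over the higher of the untreated CPM and a floor of 3 counts. Loss meant 0 survivor counts at 10 or more untreated counts. For ratios the exact 95% interval of the survivor library's part of the paired counts was converted, and shares have Clopper-Pearson intervals. With 1 library per condition no test was made and edgeR was not used. The genes and lists were chosen with earlier results of these data known. Named are all 9 genes and, per further list and survivor library, up to 3 genes with an enriched sgRNA, or else the gene with the highest CPM, and the 3 genes nearest to FAR2 by log2(CPM + 1). Some genes that this rule names are not reported here. Of 54 listed genes in the library 52 have current symbols. The call rule and the intervals of ratios were tested on simulated data. There, only sgRNAs with at least 10 untreated counts were raised, and the wide loss of sgRNAs in survivors was not simulated. The simulation therefore does not cover rises from 0 or 1 untreated counts, such as that of FAR2. Thresholds, scalings and filters were varied. The software was Python 3.11.15, scipy 1.17.1, pandas 2.3.3, numpy 2.4.6 and, for plots, matplotlib 3.10.9.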

Additional observations from a re-analysis of the deposited data

How the results depend on the processing

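Of 28 alternatives to 7 results, 17 stayed within 1.5 times a count or within the interval of a ratio. The FAR2 sgRNA was not enriched at 1000 CPM, nor among sgRNAs with at least 10 untreated counts, which leave it out, so the number enriched in RSL-3 survivors was 0 in both. At 10 CPM 1 of the 54 sgRNAs, that of PEX19, was enriched in RSL-3/LA survivors, against 2.24% of all sgRNAs. Of the 2 with at least 50 untreated counts, those of FAR1 and PEX10, 1 was lost in RSL-3 survivors, against 96.0% of all such sgRNAs. The ratio of summed CPM in RSL-3 survivors was 1.68 without the sgRNAs of DHCR7 in the total and 1.59 when scaled by the non-targeting sgRNAs. It was 0.14 when limited to at least 10 untreated counts, which leaves out FAR2. Without the most abundant survivor sgRNA of each gene it was 0. That value was fixed in advance, because no gene had more than 1 sgRNA with a count, so it says nothing on robustness. The direction of the ratio in RSL-3 survivors thus rests on the FAR2 sgRNA, and whether its interval includes 1 on the scaling. In RSL-3/LA survivors the ratio was 0.094 when scaled by the non-targeting sgRNAs. With either of those filters it was 0, again fixed in advance, because both leave out the PEX19 sgRNA, the only one with a count there. These fixed values are counted among the 28 alternatives. No paired analysis was possible because there were no replicates, which also meant that leaving out a library could not be tried. Statements on sgRNAs with 0 or 1 untreated counts, which include those of FAR2 and PEX19, are limited by these low counts. Whether deeper sequencing would raise them was not tested.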
